A study of Homo sapiens with 35 samples.

Results

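OCI-AML-3 cells in which both SUV39H1 and SUV39H2 had been targeted were compared with OCI-AML-3 cells carrying a control guide. The 4 libraries are 2 of the double knockout, labelled sgSUV39H1/2 DKO and called DKO here, and 2 of the control guide, sgControl. They were taken from the 35 RNA-seq libraries of the study by their labels, and they are the whole of its OCI-AML-3 material. OCI-AML-3 is an established line from an acute myeloid leukaemia known for its mutated NPM1 gene. Both groups were grown in MEM alpha with 20% fetal bovine serum, without added drug or cytokine. The labels do not say whether the DKO cells are 1 clone or a pool, which guides were used, or when the cells were collected after editing. The rest of the series holds control-guide, SUV39H1 single knockout and double knockout libraries of U937 and THP-1 cells, the same 3 kinds of U937 cells treated with TPA, and control-guide and single knockout libraries of MOLM-13 cells.

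SUV39H1 and SUV39H2 are a pair of histone methyltransferases whose product is histone H3 trimethylated at lysine 9. That mark is bound by HP1 proteins and keeps repeats, pericentromeric DNA and many lineage genes silent. In myeloid cells such silencing is one of several layers that hold monocyte and granulocyte genes down in progenitors, and its loss in other cell types has been linked to transcription of retroelements and to interferon signalling.

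The libraries held 43104443 and 44008128 counted reads in DKO cells, and 42387183 and 42049390 in sgControl cells, within the range of 31985767 to 61178704 over the series. In these 4 libraries 16175 of 59428 gene rows passed the filter on low counts and were tested. Levels below are CPM, a gene's reads scaled by the size of its library after edgeR's TMM (trimmed mean of M-values) correction, with no correction for gene length. Fold changes are log2 of DKO over sgControl from edgeR's quasi-likelihood test, given with their standard error (SE, n = 2 libraries each). A gene rose or fell where its Benjamini-Hochberg adjusted p over all 16175 genes was below 0.05. Replicates differed by more than sampling noise, with a chi-square per degree of freedom of 6.38 between DKO libraries and 3.45 between sgControl libraries. The labels do not state how the replicates were grown, so the p-values cover library-to-library scatter that could be technical.

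The library labels were checked on the targeted genes and on markers of cell type. Which myeloid line the libraries come from was not checked. SUV39H1, at X:48695554-48709016 on the plus strand of hg38, had 3.06 and 4.71 CPM in DKO libraries, against 40.6 and 38.8 CPM in sgControl libraries. It fell by 3.35 ± 0.12 on the log2 scale (adjusted p = 2.3e-29). SUV39H2, at 10:14878820-14904315 on the plus strand, had 22.9 and 19.7 CPM in DKO cells and 29.3 and 24.1 CPM in sgControl cells. The groups nearly meet, with a log2 fold change of -0.33 ± 0.09 (adjusted p = 0.0028). The SUV39H2 call was lost without either DKO library or without sgControl library 1, where adjusted p lay between 0.118 and 0.335, and with no filter on low counts (adjusted p = 0.129). DCLRE1C overlaps SUV39H2 on the opposite strand and had a log2 fold change of -0.28. The sources do not say whether strand was used in counting this table, so reads of overlapping genes may be mixed here and below. Not every such overlap is pointed out. An edited gene can still be transcribed, so the SUV39H2 level does not report on its protein. Myeloid identity was plain in both groups: CD33, a receptor of myeloid blasts, had 81.5 and 84.0 CPM in DKO cells against 78.7 and 79.9 CPM in sgControl cells, and the leukocyte antigen PTPRC (CD45) had 425.8 and 389.6 against 320.3 and 324.3 CPM. Defining markers of T cells (CD3D), B cells (MS4A1), red cells (HBB), platelets (PF4), epithelium (EPCAM, KRT19) and fibroblasts (COL3A1) were at 0 reads in all 4 libraries. The monocyte marker CD68 was under 1 CPM in each library.

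About as many genes rose as fell. Of the 16175 genes, 3931 rose (24.3%) and 4134 fell (25.6%), in all 8065 genes or 49.9%. Changes of at least 2-fold were fewer, with 1070 genes higher (6.62%) and 770 lower (4.76%), and the median log2 fold change over all genes was 0.02. These shares are the background for each list below. The number of genes called depended on the libraries: 2277 rose without DKO library 1 and 2192 without DKO library 2.

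**Figure D1:**
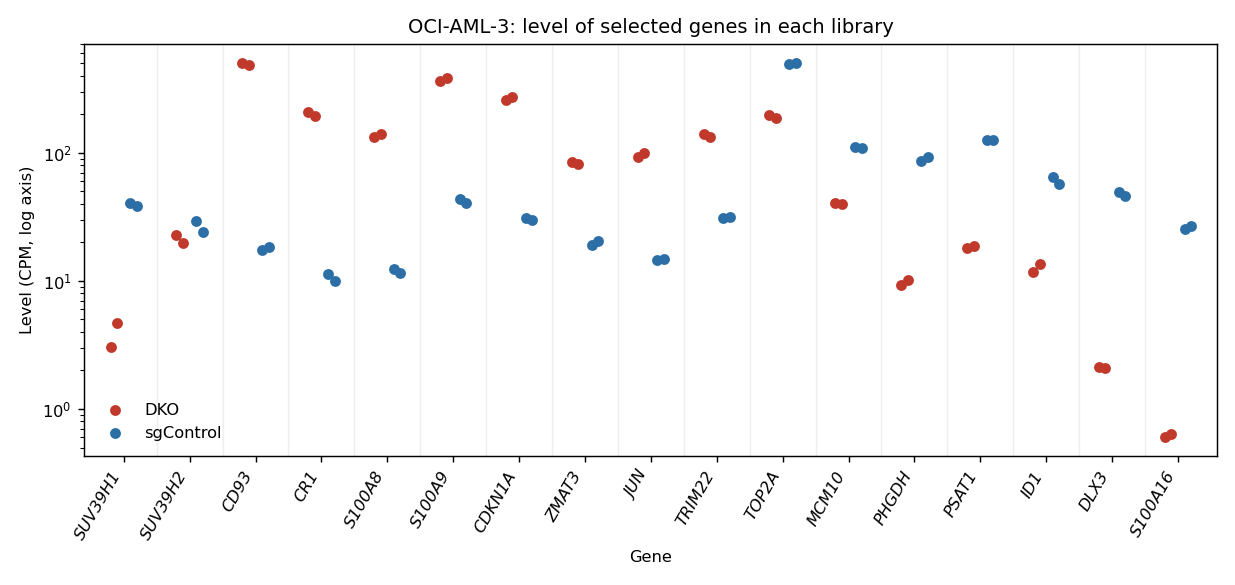
Level of 17 selected genes in each library, in CPM on a log axis, with the 2 DKO libraries in red on the left and the 2 sgControl libraries in blue on the right of each gene. SUV39H1 sits at 3.06 and 4.71 CPM in DKO against 40.6 and 38.8 CPM in sgControl, while SUV39H2 is close between the groups.

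Many monocyte genes rose. Of 53 genes of a monocyte and macrophage list, 48 were tested, 32 rose and 7 fell, and 23 of those that rose did so by at least 2-fold. The median of the 48 was 0.96 on the log2 scale, against 0.02 over all genes.

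The S100A8 and S100A9 genes encode the subunits of calprotectin, the most abundant cytosolic protein pair of monocytes and neutrophils. They lie close together in the S100 cluster of chromosome 1, and their proximal promoters are shown because the pair moved together. The sequences are the 100 bases before each annotated start from RefSeq (GRCh38.p14), read along the gene, with the TATAAA box in capitals.
S100A8, chr1:153391074-153391173, minus strand: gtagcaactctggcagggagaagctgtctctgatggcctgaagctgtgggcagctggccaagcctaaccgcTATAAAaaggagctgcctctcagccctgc
S100A9, chr1:153357754-153357853, plus strand: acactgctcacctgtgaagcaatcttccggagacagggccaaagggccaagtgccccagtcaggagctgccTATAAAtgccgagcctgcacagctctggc
In both, TATAAA begins 29 bases before the start. Over the 250 bases before the start and on both strands, TATAAA occurred in 9.68% of 18347 promoters and in 5.5% of the promoters of tested genes. S100A8 had 133.0 and 140.4 CPM in DKO cells against 12.4 and 11.5 CPM in sgControl cells (3.52 ± 0.07). S100A9 had 361.8 and 380.1 CPM in DKO cells against 43.9 and 40.7 CPM in sgControl cells (3.13 ± 0.06). Both genes were named for being among the largest changes of the list, which favours groups that stand apart. The related S100A12, a ligand of RAGE, was rare, with 3.29 and 2.56 CPM in DKO cells and 0.331 in each sgControl library (3.13 ± 0.32).

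Surface and secreted monocyte products followed. LYZ, the lysozyme of monocyte granules, had 1239 and 1197 CPM in DKO libraries against 259.9 and 258.5 CPM in sgControl libraries (2.23 ± 0.05). VCAN, the versican of classical monocytes, had 312.0 and 293.9 CPM against 64.8 and 68.7 CPM in sgControl cells. The scavenger receptor CD36 had 429.9 and 400.3 CPM against 107.3 and 100.5 CPM in sgControl cells. The log2 fold changes were 2.18 ± 0.06 for VCAN and 2.00 ± 0.06 for CD36. The haemoglobin scavenger receptor CD163 rose to 19 and 16.9 CPM in DKO cells, against 2.53 and 2.27 CPM in sgControl cells (2.90 ± 0.14). CD14, the lipopolysaccharide co-receptor, stayed low in absolute terms at 9.78 and 8.97 CPM in DKO cells, against 2.34 and 1.37 CPM in sgControl cells (2.34 ± 0.18). ITGAX (CD11c, 2.02), the adaptor TYROBP (1.66), the lysosomal protease CTSD (1.25) and the macrophage colony-stimulating factor receptor CSF1R (1.01) rose as well, as did 3 genes of low level, C5AR1 (3.01), CLEC7A (2.98) and SIGLEC5 (2.80). The list was not uniform. LGALS3, the macrophage galectin, had 5.19 and 5.56 CPM in DKO cells against 12.9 and 12.1 CPM in sgControl cells, and fell by 1.22 ± 0.13. CX3CR1, the fractalkine receptor of patrolling monocytes, fell (-1.09 ± 0.17), as did the inhibitory lectin SIGLEC7 (-1.20 ± 0.18).

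The GAGGAAG motif of PU.1-type ETS factors was found within 250 bases before the start in 13 of the 41 monocyte and macrophage genes with a promoter entry (31.7%), and in 11.6% of all promoters. Among the 24 such genes that rose, 8 held it. A match is a description of the letters in this window.

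In bulk RNA a rise can come from more cells of a type or from more RNA per cell, and these cannot be told apart here. Markers of other cell types were few. Lymphoid list genes summed to 340 and 344 CPM in DKO libraries and 274 and 267 CPM in sgControl libraries, with 3 of 8 tested members up and 3 down. Megakaryocyte genes summed to 55.6 and 62.8 CPM in DKO libraries and 47.9 and 48.2 CPM in sgControl libraries, with 3 of 8 up and 1 down. Mast cell, basophil and dendritic genes summed to 373 and 375 against 336 and 331 CPM, with 1 of 7 up and 3 down, and erythroid genes to 194 and 184 against 199 and 210 CPM, with 1 of 2 up and 1 down. In each of these lists 1 gene made most of the sum. For the lymphoid list it was CD4, with 14043 and 14433 reads in DKO libraries against 10552 and 10403 in sgControl libraries. For the megakaryocyte list it was NFE2, at 48.4 and 54.5 against 42.2 and 42.4 CPM. SIRPA, at 305.9 and 306.4 against 238.1 and 235.5 CPM, led the mast cell, basophil and dendritic sum. TFRC, at 175.0 and 164.7 against 187.2 and 196.5 CPM, led the erythroid sum. The stromal, endothelial and epithelial list moved most, at 1498 and 1469 CPM in DKO libraries against 702 and 688 CPM in sgControl libraries, with 4 of 10 tested members up and 2 down. That sum was carried by FN1, PECAM1 and VIM, which monocytes also express: fibronectin FN1 had 636.5 and 605.3 CPM against 159.8 and 166.6 CPM in sgControl cells, and PECAM1 (CD31) had 253.6 and 256.0 against 78.5 and 75.8 CPM. These small counts moved with the libraries: 1 lymphoid and no megakaryocyte member rose without DKO library 2, 1 megakaryocyte member rose without DKO library 1, no erythroid member fell without DKO library 2 or sgControl library 2, and 1 stromal member fell without any 1 of the 4. The part of these markers in the monocyte result was not tested.

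Granule genes split. Of 25 genes of the neutrophil and eosinophil granule list, 12 were tested, 7 rose and 3 fell, or 1 without DKO library 1 or sgControl library 1, with a median of 0.64. The chymotrypsin-like protease CTSG had 1185 and 1244 CPM in DKO cells against 528.2 and 516.6 CPM in sgControl cells (1.22 ± 0.05). AZU1, the antimicrobial azurocidin, rose by 1.00 ± 0.05 and RNASE3, the eosinophil cationic protein, by 1.58 ± 0.06. PRTN3, proteinase 3, lies beside AZU1 on chromosome 19 and went the other way, with 1077 and 1173 CPM in DKO cells against 1711 and 1599 CPM in sgControl cells (-0.56 ± 0.05). MPO, the myeloperoxidase of primary granules, was nearly absent at 1.32 and 1.26 CPM in DKO cells and 1.96 and 2.01 CPM in sgControl cells, and its call (adjusted p = 0.048) was lost on leaving out any 1 of the 4 libraries (adjusted p 0.0971 to 0.139).

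The cell cycle inhibitor CDKN1A (p21) led a broad rise of p53 target genes. CDKN1A, at 6:36676460-36687337 on the plus strand, had 259.3 and 271.6 CPM in DKO cells against 31.2 and 29.8 CPM in sgControl cells. Its log2 fold change was 3.12 ± 0.06 (adjusted p = 1.5e-39), the largest absolute change of the list, for which it was named. Of 35 genes of the p53 target and apoptosis list, 34 were tested, 25 rose and 6 fell, with a median of 0.53, and 2 fell without DKO library 2. TP53INP1, a p53-induced nuclear protein, rose by 2.68 ± 0.13, the RNA-binding ZMAT3 by 2.08 ± 0.07, PHLDA3, an inhibitor of AKT, by 1.94 ± 0.09 and the antiproliferative BTG2 by 1.74 ± 0.08. MDM2, the ubiquitin ligase that p53 induces and that degrades it, had 132.6 and 127.0 CPM in DKO cells against 65.9 and 72.7 CPM in sgControl cells (0.91 ± 0.06). The death receptor TNFRSF10B (1.12), ferredoxin reductase FDXR (1.09), sestrin SESN1 (0.97), GADD45A (0.96) and the pore-forming BAX (0.75) also rose. RPS27L, a ribosomal protein paralogue known as a p53 target and counted in the ribosomal list, rose by 1.09 ± 0.06. LACTB overlaps RPS27L on the opposite strand and rose by 0.90. PMAIP1 (NOXA), a p53 target that opposes MCL1, fell by 0.51 ± 0.10. FAS, the death receptor and another p53 target, had 17.7 and 13 CPM in DKO cells against 6.39 and 6.26 CPM in sgControl cells, but ACTA2 overlaps it on the opposite strand and rose by 2.28, so the 2 counts may not be cleanly separated.

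Proliferation genes fell together. The 41 genes of this list, covering DNA replication, mitosis and cell cycle kinases, were all tested. None rose and 41 fell, 31 of them by at least 2-fold, with log2 fold changes from -1.45 to -0.28 and a median of -1.09. MCM10, a factor needed to start replication forks, had 40.7 and 39.7 CPM in DKO cells against 110.0 and 109.6 CPM in sgControl cells (-1.45 ± 0.06). TOP2A, the topoisomerase that decatenates sister chromosomes, had 196.6 and 186.1 CPM against 494.2 and 504.5 CPM in sgControl cells (-1.38 ± 0.05). These 2 genes were named for being among the largest changes of the list, which favours groups that do not overlap. The proliferation antigen MKI67 had 277.7 and 284.3 CPM in DKO cells and 547.1 and 587.8 CPM in sgControl cells (-1.01 ± 0.05), and the sliding clamp PCNA had 200.7 and 194.2 CPM in DKO cells and 298.6 and 300.7 CPM in sgControl cells (-0.60 ± 0.05). Cyclin E1, CCNE1, was the least changed, at 23.5 and 24 CPM in DKO cells against 30.4 and 27.4 CPM in sgControl cells. Its call (-0.28, adjusted p = 0.0045) was lost without DKO library 1, DKO library 2 or sgControl library 1 (adjusted p 0.100 to 0.177).

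Promoters of cell cycle genes often carry the CHR element (TTTGAA), bound by the DREAM and MuvB complexes, or an E2F core (TTCCCGC). Among the 34 list genes with a RefSeq promoter entry, 10 held TTTGAA in the 250 bases before the start (29.4%) and 8 held TTCCCGC (23.5%), searched on both strands. The shares were 11.6% and 6.88% of all 18347 promoters, and 8.62% and 8.69% of those of tested genes. TTTGAA was not particular to this list: 10 of the 41 monocyte and macrophage genes with an entry held it (24.4%), and 8 of the 24 that rose (33.3%). The 100 bases before the start are shown for 3 of the list genes, those with the largest falls among genes with either motif in that stretch (GRCh38.p14). Capitals mark TTTGAA in the centromeric histone CENPA and the spindle checkpoint kinase BUB1B, and TTCCCGC read on the other strand, as GCGGGAA, at 2 places in the origin licensing factor CDT1.
CENPA, chr2:26785956-26786055, plus strand: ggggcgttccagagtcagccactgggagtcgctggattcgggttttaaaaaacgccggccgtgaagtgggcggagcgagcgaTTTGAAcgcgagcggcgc
CDT1, chr16:88803689-88803788, plus strand: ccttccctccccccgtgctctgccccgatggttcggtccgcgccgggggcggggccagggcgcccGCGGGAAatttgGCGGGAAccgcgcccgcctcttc
BUB1B, chr15:40160969-40161068, plus strand: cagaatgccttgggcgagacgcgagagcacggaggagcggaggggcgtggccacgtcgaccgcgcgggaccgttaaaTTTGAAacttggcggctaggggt
TTTGAA begins 18 bases before the CENPA start and 23 before the BUB1B start, and the CDT1 matches begin 35 and 23 bases before the start. CENPA had 8.95 and 9.88 CPM in DKO cells against 26.6 and 23.8 CPM in sgControl cells (-1.42 ± 0.10). The windows say nothing of whether a factor was bound.

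**Figure D2:**
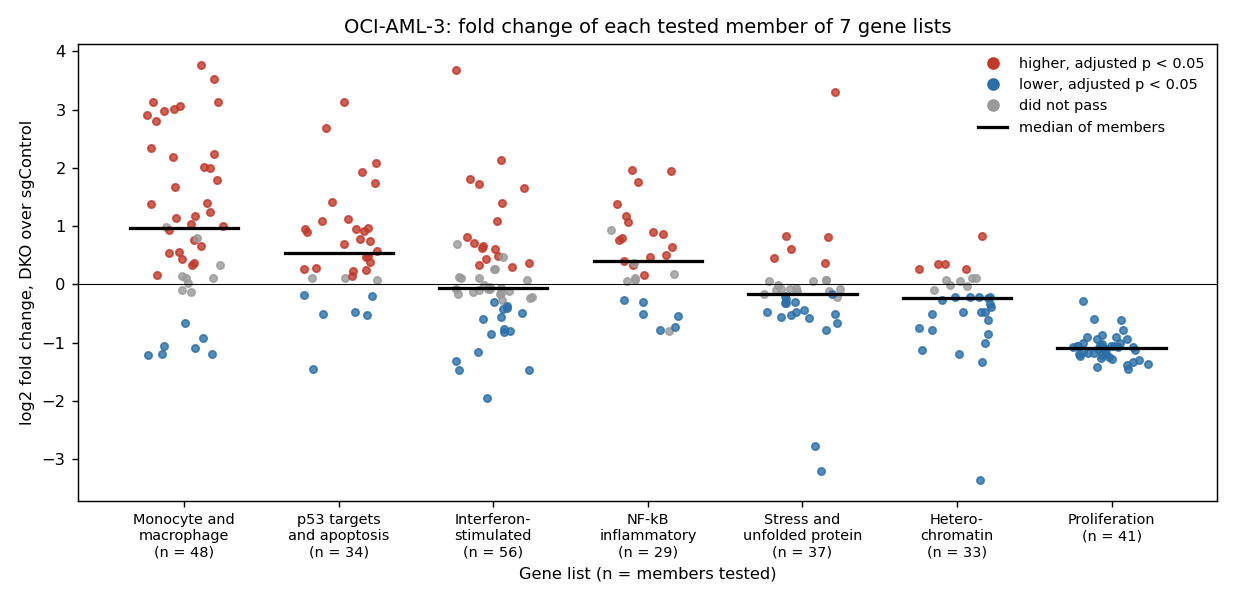
Log2 fold change (DKO over sgControl) of each tested member of 7 gene lists, red where higher and blue where lower at an adjusted p below 0.05, grey otherwise, with the median as a bar. Medians are 0.96 for monocyte and macrophage genes, 0.53 for p53 targets and apoptosis, -0.07 for interferon-stimulated genes and -1.09 for proliferation, where each of the 41 points is blue.

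Interferon-stimulated genes did not move in 1 direction. Of 64 genes of this list in the files, 56 were tested, 17 rose and 16 fell, and the median was -0.07. Their summed level was 1880 and 1866 CPM in DKO libraries and 1787 and 1828 CPM in sgControl libraries. The counts depended on the libraries: 10 rose and 9 fell without DKO library 1, 9 rose and 10 fell without DKO library 2, and 11 rose without sgControl library 1. TRIM22, an antiviral ubiquitin ligase that is also a p53 target, had 140.7 and 133.9 CPM in DKO cells against 30.8 and 31.7 CPM in sgControl cells (2.14 ± 0.07). ISG15, the ubiquitin-like modifier, had 15 and 14 CPM in DKO cells against 7.33 and 6.31 CPM in sgControl cells (1.09 ± 0.12). The helicase DDX60L rose by 1.40 ± 0.07, and the signal transducer STAT2 by 0.72 ± 0.07. SIGLEC1, a sialic acid receptor of macrophages, had 1.95 and 1.17 CPM in DKO cells and was near absent from sgControl cells at 0.189 and 0.0472 CPM (3.69 ± 0.50). On the other side, the guanylate-binding protein GBP4 had 4.45 and 5.10 CPM in DKO cells against 13.2 and 13.3 CPM in sgControl cells (-1.47 ± 0.13), while its neighbour GBP2 had 8.93 and 8.05 CPM against 2.72 and 2.41 CPM in sgControl cells (1.73 ± 0.16). The DNA sensor IFI16 (-0.76 ± 0.06), the ADP-ribosyltransferase PARP14 (-0.86 ± 0.09), the membrane restriction factor IFITM3 (-1.16 ± 0.20) and the secreted LGALS3BP (-1.94 ± 0.26) fell. The core of the interferon response element ISRE, GAAA repeated after a gap of 2 bases, was found on either strand in the promoters of 5 of 9 genes that rose and 7 of 14 that fell, among those with an entry, against 2.8% of all promoters.

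Interferons themselves, their receptors and the nucleic acid sensors were read next. Of 31 interferons, receptors and JAK-STAT genes, 21 were tested, 9 rose and 3 fell, with a median of 0.10. Without DKO library 1, 3 rose and none fell, and none fell without DKO library 2 and 1 without sgControl library 1. IFNAR2, a chain of the type I interferon receptor, had 3.90 and 3.13 CPM in DKO cells against 1.99 and 2.32 CPM in sgControl cells (0.71 ± 0.21), a call lost without either DKO library or without sgControl library 1 (adjusted p 0.0502 to 0.125). Of 23 nucleic acid sensing genes, 18 were tested, 6 rose and 5 fell. TLR8, the endosomal sensor of single-stranded RNA in monocytes, had 5.66 and 5.90 CPM in DKO cells against 0.615 and 0.425 CPM in sgControl cells (3.47 ± 0.24). The cytosolic DNA sensor CGAS fell to 21.7 and 21.5 CPM in DKO cells, against 39.7 and 36.9 CPM in sgControl cells (-0.83 ± 0.08). Its adaptor STING1 rose to 314.2 and 330.8 CPM in DKO cells, against 231.5 and 232.0 CPM in sgControl cells (0.48 ± 0.05). Sensor and adaptor of the same pathway moved in opposite directions.

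Inflammatory genes rose more often than they fell. Of 33 NF-kB and inflammatory genes, 29 were tested, 16 rose and 6 fell, with a median of 0.41. The chemokine CXCL8 (interleukin 8) had 238.7 and 205.5 CPM in DKO cells against 107.9 and 104.7 CPM in sgControl cells (1.06 ± 0.06). The survival factor BCL2A1 rose by 1.97 ± 0.13, the monocyte attractant CCL2 by 1.76 ± 0.18, CCL5 by 0.90 ± 0.05 and TNF by 0.76 ± 0.08. NFKBIA, the inhibitor that holds NF-kB in the cytosol, had 44.0 and 43.6 CPM in DKO cells against 63.0 and 61.9 CPM in sgControl cells (-0.51 ± 0.07).

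HLA-B and other class I heavy chains rose with their light chain, while the list as a whole had no common direction. Of the 22 MHC class I genes tested, 8 rose and 5 fell, with a median of 0.02, and 5 rose without DKO library 2 or without sgControl library 2. HLA-B, a classical class I heavy chain, had 577.4 and 610.2 CPM in DKO cells against 389.0 and 377.8 CPM in sgControl cells. HLA-C rose by 0.55 ± 0.05, HLA-E by 0.40 ± 0.05 and the shared light chain B2M by 0.54 ± 0.05. The immunoproteasome subunit PSMB9 fell by 0.47 ± 0.08. Class I genes are near-identical to each other, so reads may be split between them or dropped. Of 15 MHC class II genes, 7 were tested, 4 rose and none fell, and 2 rose without DKO library 2. The invariant chain CD74 had 159.6 and 168.9 CPM in DKO cells against 103.2 and 101.0 CPM in sgControl cells, and TCOF1, which overlaps it on the opposite strand, fell by 0.70. HLA-DRA, a class II alpha chain, was at 0.835 and 1.24 CPM in DKO cells and 0.189 and 0.283 CPM in sgControl cells, and its call was lost without DKO library 2 (adjusted p = 0.0658). Of 25 immune ligands and checkpoint genes, 19 were tested, 8 rose and 6 fell, and 5 rose without DKO library 2. The costimulatory TNFSF4 (OX40 ligand) rose by 1.56 ± 0.22, the NKG2D ligand ULBP2 rose by 0.93 ± 0.20, and its relative ULBP1 fell by 1.27 ± 0.24.

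Genes of the heterochromatin list were mostly lower. Besides silencing genes, it holds enzymes that act against methyl marks, TET1 and KDM4C among them. All 33 members of the heterochromatin list were tested, 5 rose (3 without sgControl library 1) and 21 fell, with a median of -0.24. SUV39H1 is 1 of them, and SUV39H2 another. UHRF1, which reads the H3 lysine 9 mark and brings DNMT1 to replicating DNA, had 108.5 and 113.4 CPM in DKO cells against 243.7 and 240.3 CPM in sgControl cells (-1.12 ± 0.05). DNMT1, the maintenance DNA methyltransferase, had 267.3 and 272.4 CPM in DKO cells against 433.4 and 468.1 CPM in sgControl cells (-0.74 ± 0.05). The remodeller HELLS (-1.19 ± 0.09), TET1, which oxidises methylcytosine (-1.34 ± 0.21), and DNMT3B, a de novo methyltransferase (-0.78 ± 0.10), fell as well. CBX5, the HP1 alpha protein that binds the mark SUV39H1 and SUV39H2 make, had 107.8 and 95.6 CPM in DKO cells against 182.1 and 184.4 CPM in sgControl cells (-0.85 ± 0.06). The lamin B receptor LBR, which ties heterochromatin to the nuclear envelope, fell to 210.1 and 194.3 CPM in DKO cells, against 406.6 and 399.9 CPM in sgControl cells, and the KAP1 co-repressor TRIM28 fell by 0.47 ± 0.05. UHRF1, DNMT1 and HELLS are expressed with the cell cycle, and the proliferation list fell in the same libraries at a median of -1.09. Its part in these changes was not tested. SETDB2, another histone H3 lysine 9 methyltransferase, rose to 30.7 and 26.5 CPM in DKO cells, against 16.4 and 15.6 CPM in sgControl cells (0.84 ± 0.09), and the demethylase KDM4C rose by 0.36 ± 0.08.

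The serine synthesis genes PHGDH and PSAT1 had the largest falls of the stress response list. PHGDH, the first enzyme of serine synthesis (1:119648411-119744218, plus strand), had 9.25 and 10.1 CPM in DKO cells against 86.3 and 92.7 CPM in sgControl cells (-3.21 ± 0.08). PSAT1, the next enzyme (9:78297125-78330093, plus strand), had 18 and 18.6 CPM in DKO cells against 126.6 and 124.8 CPM in sgControl cells (-2.78 ± 0.07). PHGDH and PSAT1 were named for the size of their change, which favours groups that stand apart. The folate cycle enzymes MTHFD2 (-0.66 ± 0.06) and SHMT2 (-0.55 ± 0.05) fell, as did ATF4, the transcription factor known to drive these genes (-0.31 ± 0.05). Over the 37 genes of the stress and unfolded protein response list 6 rose and 17 fell, with a median of -0.17. HMOX1, the haem oxygenase induced by oxidative stress and high in macrophages, was an exception with 25.5 and 28.3 CPM in DKO cells against 2.74 CPM in each sgControl library (3.29 ± 0.12). DDIT3 (CHOP) rose by 0.82 ± 0.12 and overlaps other genes that changed, while the ATF4 target TRIB3 fell by 0.57 ± 0.08.

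Immediate early genes rose more often than they fell, and lipid synthesis genes the reverse. Of 31 immediate early genes, 30 were tested, 13 rose and 7 fell, or 4 without DKO library 2. The AP-1 subunit JUN had 93.1 and 99.6 CPM in DKO cells against 14.5 and 14.9 CPM in sgControl cells (2.71 ± 0.07), and its partner FOS had 76.4 and 77.2 CPM in DKO cells against 23.3 and 23.1 CPM in sgControl cells (1.73 ± 0.07). FOSL2 rose by 1.34 ± 0.05, the RNA-decay factor ZFP36L1 by 1.84 ± 0.11 and the ERK phosphatase DUSP6 by 1.17 ± 0.11. ID1, an inhibitor of differentiation factors that responds to BMP signals, fell to 11.7 and 13.5 CPM in DKO cells, against 64.7 and 57.3 CPM in sgControl cells (-2.27 ± 0.09). ID3 (-2.69 ± 0.20) and the zinc finger factor KLF2 (-2.12 ± 0.15) fell too. Of 32 cholesterol and fatty acid synthesis genes, 30 were tested, 2 rose (1 without sgControl library 2) and 14 fell, against 9 falls without DKO library 2 and 8 without sgControl library 1. SREBF1, the master factor of fatty acid synthesis, fell (-1.18 ± 0.06), and so did the desaturases FADS2 (-1.04 ± 0.06) and SCD (-0.95 ± 0.05). FADS2 overlaps FEN1 on the same strand (-0.90) and FADS1 on the opposite strand (-0.81), and both fell.

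Progenitor genes gave no common direction. Of 30 stem and progenitor genes, 19 were tested, 7 rose (4 without DKO library 2) and 6 fell, with a median of 0.00. ANPEP (CD13), a myeloid aminopeptidase, had 86.6 and 93.6 CPM in DKO cells against 27.4 and 27.9 CPM in sgControl cells (1.71 ± 0.07). SOX4 rose by 0.81 ± 0.05, while the ETS factor ERG (-1.23 ± 0.12) and GATA2 (-0.55 ± 0.09) fell. Of 20 HOXA and HOXB genes, a group kept high in NPM1-mutated leukaemia, 18 were tested, 8 rose and 3 fell, with none falling without DKO library 1 and 1 without sgControl library 1. HOXA9 had 53.9 and 54.7 CPM in DKO cells and 41.8 and 42.9 CPM in sgControl cells (0.36 ± 0.07). HOXA3 (1.42 ± 0.25) rose from a low level together with 2 antisense genes that overlap it. NPM1 itself fell by 0.38 ± 0.04.

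**Figure D3:**
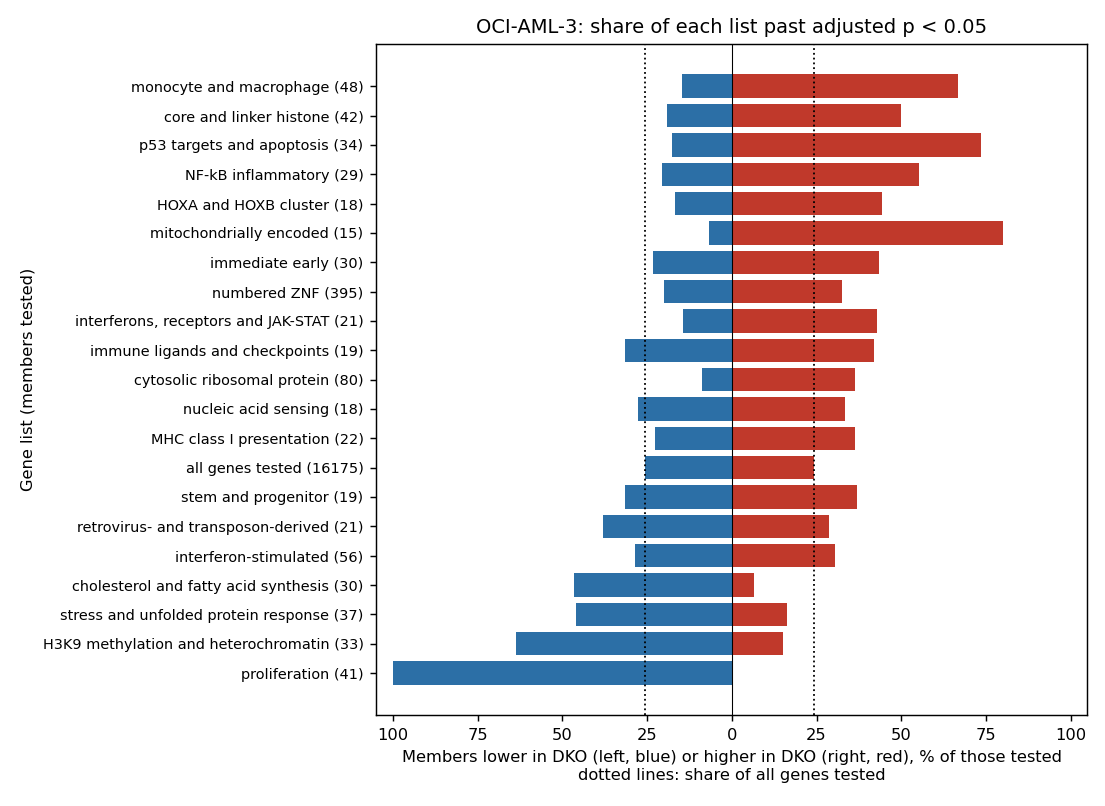
Share of each list's tested members that were lower (left, blue) or higher (right, red) in DKO cells at an adjusted p below 0.05, in percent, for lists with at least 15 tested members. Dotted lines mark the 25.6% lower and 24.3% higher over all genes, and the proliferation bar reaches the full width to the left.

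Several gene families linked to heterochromatin were examined. Of 478 numbered ZNF genes, most of which encode DNA-binding repressors, 395 were tested, 129 rose and 79 fell. By at least 2-fold 16 rose and 6 fell, below the shares of 6.62% and 4.76% over all genes. Fewer passed with 3 libraries, with 55 up and 46 down without DKO library 1, 66 up and 44 down without DKO library 2, and 52 down without either sgControl library. The rises were uneven along the genome. On chromosome 19, where clusters of these genes carry trimethylated H3 lysine 9 in many cell types, 85 of 195 rose and 24 fell (median 0.26). Of these, 12 rose and 2 fell by at least 2-fold. The 765 better-covered genes of chromosome 19, of any kind, had a median of 0.10, the highest of any chromosome. On all other chromosomes 44 of 200 rose and 55 fell (median -0.02). Within chromosome 19 the medians were 0.17 for 47 genes at 0 to 20 Mb, 0.36 for 48 genes at 20 to 40 Mb and 0.26 for 100 genes beyond 40 Mb. ZNF525, at 19:53365693-53392217 on the plus strand, had 14.1 and 11.2 CPM in DKO cells against 0.213 and 0.0945 CPM in sgControl cells (6.34 ± 0.25). Its neighbour ZNF765 overlaps it on the same strand and did not pass the test (0.16). ZNF682 rose by 1.87 ± 0.18.

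Replication-dependent histone genes with polyadenylated reads also moved. Of 74 core and linker histone genes, 42 were tested, 21 rose and 8 fell (5 without DKO library 2), with a median of 0.76, while the summed level of the list was 817 and 830 CPM in DKO libraries and 890 and 844 CPM in sgControl libraries. H2AC6 had 91.8 and 86.6 CPM in DKO cells against 14.1 and 13.1 CPM in sgControl cells (2.71 ± 0.08). H4C8 rose by 2.82 ± 0.17, H2BC4 by 2.68 ± 0.20 and H2BC21 by 2.67 ± 0.14. Most histone mRNAs lack a poly(A) tail, and these libraries were made from poly(A) RNA.

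Most germline genes had no reads. Of 41 on the list, 6 were tested, 3 rose and none fell, and 29 of the other 35 had 0 reads in all 4 libraries. TDRD9, a helicase of the piRNA pathway, had 4.94 and 4.62 CPM in DKO cells against 0.899 and 0.945 CPM in sgControl cells (2.37 ± 0.23), and the piRNA-binding PIWIL4 had 24.2 and 20.8 CPM against 12.6 and 13 CPM in sgControl cells (0.81 ± 0.10). Host genes derived from retroviruses and transposons split, with 21 of 37 tested, 6 up and 8 down, or 3 up and 5 down without DKO library 1 and 3 up and 4 down without DKO library 2. The 4 largest changes were falls, in RTL3 (-2.36 ± 0.28), PGBD5 (-1.90 ± 0.17), RTL5 (-1.53 ± 0.24) and RTL8B (-1.42 ± 0.22). Counts per gene do not measure transcripts of the repeats themselves. Of 54 clustered protocadherins, cell adhesion genes with promoters chosen by chromatin, 9 were tested, 5 rose and none fell, with 1 rising without DKO library 1 and 2 without DKO library 2. PCDHGB2 had 1.58 and 1.51 CPM in DKO cells against 0.0946 and 0.0945 CPM in sgControl cells, but genes of that cluster share exons and their reads cannot be assigned cleanly.

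By gene type, long non-coding genes rose more often than coding genes. Matched by name to GENCODE types, which reached 84.9% of tested genes, 12.7% of 817 long non-coding genes rose by at least 2-fold and 2.57% fell. For 12205 protein-coding genes these shares were 5.09% and 5.24%, and for 609 pseudogenes 7.55% and 2.96%.

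Genes with large changes outside the lists included several with a known place in myeloid cells. CD93, a surface receptor of monocytes and of leukaemic stem cells (20:23079360-23086324, minus strand), had 498.5 and 484.4 CPM in DKO cells against 17.3 and 18.5 CPM in sgControl cells (4.78 ± 0.06). CR1, complement receptor 1, had 206.9 and 194.9 CPM in DKO cells against 11.3 and 10.1 CPM in sgControl cells (4.23 ± 0.07), with RP11-78B10.2 overlapping it on the opposite strand and rising as well. DYSF, dysferlin, a membrane repair protein found in monocytes, had 9.41 and 9.70 CPM in DKO cells and 0.142 and 0.0945 CPM in sgControl cells (6.30 ± 0.27). All 3 were lower in sgControl cells, but groups that do not overlap were a condition for naming them here. EPB41L4A (5.09 ± 0.28), the phosphodiesterase PDE7B (4.40 ± 0.28) and HDX, a homeobox gene with 179 and 195 reads in DKO cells against 0 and 2 in sgControl cells, rose as well. In the other direction, S100A16, a calcium-binding gene of the same cluster as S100A8 and S100A9, had 0.603 and 0.641 CPM in DKO cells against 25.3 and 26.7 CPM in sgControl cells (-5.38 ± 0.16). The homeobox gene DLX3 had 2.13 and 2.11 CPM in DKO cells against 49.2 and 46.0 CPM in sgControl cells (-4.49 ± 0.11). The secreted protease ADAMTS10 (-5.30 ± 0.26) and the retinaldehyde reductase DHRS3 (-5.10 ± 0.32) fell as well. Members of 1 gene cluster on chromosome 1 therefore went to opposite ends, S100A8 and S100A9 up and S100A16 down.

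Some genes had reads in 1 group alone. Among tested genes, 12 had 0 reads in both sgControl libraries and 19 had 0 reads in both DKO libraries. Such genes pass the filter on low counts only through the group with reads, which favours a call. All 12 and all 19 passed the test, so their calls add nothing to the counts of reads. The folds below use the observed mean of the group with reads, and scatter in that mean is not covered. FLJ36000, at 17:22406019-22413744 on the plus strand, had 4.89 and 4.62 CPM in DKO libraries and 0 reads in each sgControl library, at least 134-fold higher with a floor of 3 reads over the sgControl group. The transcription factor ONECUT3 had 36 and 48 reads in DKO libraries and 0 in sgControl libraries, at least 27.3-fold higher. The aquaporin AQP9, expressed in leukocytes, had 30 and 21 reads in DKO libraries and 0 in sgControl libraries, at least 16.6-fold higher, a call lost without DKO library 1 (adjusted p = 0.0522). CRISPLD1 had 0 reads in each DKO library and 201 and 204 reads in sgControl libraries, at least 139-fold lower with the same floor over the DKO group. UGT8, the galactosylceramide synthase, had 0 reads in DKO libraries and 178 and 167 in sgControl libraries, at least 118-fold lower, and the sensory neuron factor POU4F1 had 0 in DKO libraries and 65 and 36 in sgControl libraries, at least 34.6-fold lower. The integrin ITGB3 had 0 reads in DKO libraries and 16 in each sgControl library, and the collagen COL1A2 had 0 in DKO libraries and 16 and 14 in sgControl libraries.

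Changes were spread over the chromosomes. Median log2 fold changes over 10546 better-covered genes ran from -0.13 on chromosome 18 to 0.10 on chromosome 19, and over 135 windows of 20 Mb from -0.25 to 0.32. Mitochondrial reads made up 7.849% and 7.56% of DKO libraries and 6.683% and 6.564% of sgControl libraries, and 12 of 15 mitochondrially encoded genes rose and 1 fell, with a median of 0.22, and the fall was lost without DKO library 2 or without either sgControl library. Of 81 cytosolic ribosomal protein genes, 80 were tested, 29 rose and 7 fell, with a median of 0.07, and between 7 and 15 rose when 1 library was left out, while 3 fell without DKO library 1 or sgControl library 1 and 4 without DKO library 2. Their part in the results above was not tested.

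The effect of the double knockout in OCI-AML-3 was set against that in U937 and THP-1, each with 3 DKO and 3 sgControl libraries without drug. A fit of these 16 libraries tested 20193 genes. In it 3703 genes had a higher effect in OCI-AML-3 than in U937 (18.3%) and 3968 a lower one (19.7%), and 5337 a higher (26.4%) and 3464 a lower effect (17.2%) than in THP-1. U937 and THP-1 were counted in another deposited table and grown in another medium, so line, medium and table cannot be told apart. Per the file headers, the THP-1 DKO and sgControl libraries carry different dates, and the sgControl libraries alone name a clone. The U937 DKO libraries name 1 clone and carry no date, while the U937 sgControl libraries carry a date and name no clone. In both of those lines the knockout and the date or clone cannot be told apart.

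The p53 target genes differed between the lines. Their median was 0.49 in OCI-AML-3, 0.08 in U937 and 0.04 in THP-1 over the same 35 genes, and 15 had a higher effect in OCI-AML-3 than in both other lines (9.63% of all genes) against 2 with a lower one (6.43% of all genes). CDKN1A had log2 fold changes of 3.11 in OCI-AML-3, 1.70 in U937 and -1.70 in THP-1, and the differences of 1.41 ± 0.12 and 4.81 ± 0.10 both passed (adjusted p = 2.4e-11 and 4.7e-28). Proliferation genes fell in each line, with medians of -1.10 in OCI-AML-3, -0.58 in U937 and -0.73 in THP-1. Of 41, 40 fell in OCI-AML-3 (19.2% of all genes in this fit), 39 in U937 (26.4% of all genes) and 38 in THP-1 (35.4% of all genes), and 20 had a lower effect in OCI-AML-3 than in both others, against the same 6.43% of all genes. For the interferon-stimulated list OCI-AML-3 lay between, at -0.04, with U937 at 1.10 and THP-1 at -1.08. Of 63 such genes, 40 had a lower effect in OCI-AML-3 than in U937 (19.7% of all genes). A higher effect than in THP-1 was seen for 43 (26.4% of all genes). ISG15 shows it, with log2 fold changes of 1.08 in OCI-AML-3, 1.96 in U937 and -3.16 in THP-1.

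The median of 51 monocyte genes was 0.97 in OCI-AML-3, 1.67 in U937 and 0.42 in THP-1. Of these, 33 rose in OCI-AML-3 (15.7% of all genes in this fit), 41 in U937 (25.3% of all genes) and 29 in THP-1 (27.0% of all genes). The effect was higher in OCI-AML-3 than in U937 for 9 (18.3% of all genes) and lower for 26 (19.7% of all genes). The 9 of 51 lie near the share over all genes. Against THP-1 the effect was higher in OCI-AML-3 for 25 (26.4% of all genes) and lower for 15 (17.2% of all genes). S100A8 had effects of 3.51 in OCI-AML-3, 2.83 in U937 and 3.82 in THP-1, and its differences between lines did not pass (0.68 ± 0.35 from U937 and -0.31 ± 0.18 from THP-1, adjusted p = 0.135 and 0.175). PHGDH had -3.21 in OCI-AML-3, -0.04 in U937 and -1.53 in THP-1, with both differences past the test. SUV39H1 mRNA itself differed: its effect was -3.36 in OCI-AML-3, 0.31 in U937 and 0.64 in THP-1. On the TMM scale of the 16 libraries, on which OCI-AML-3 levels differ slightly from those above, its group means were 3.62 CPM in DKO against 37.2 CPM in sgControl OCI-AML-3 cells, 86.3 CPM in DKO against 69.4 CPM in sgControl U937 cells, and 56.9 CPM in DKO against 36.4 CPM in sgControl THP-1 cells.

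**Figure D4:**
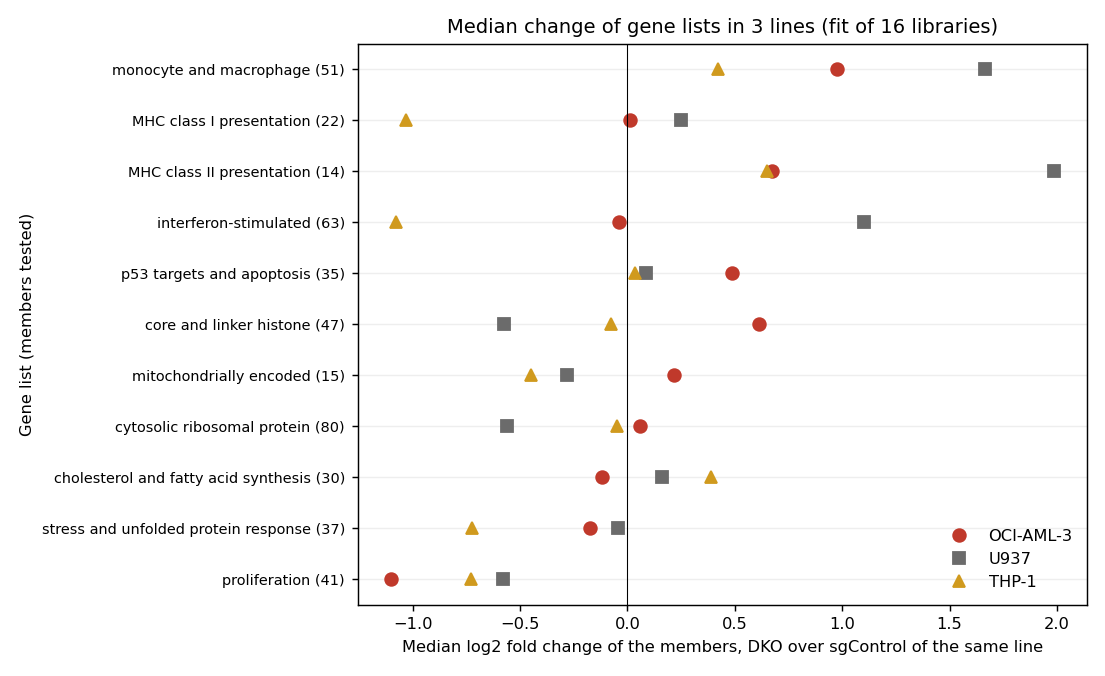
Median log2 fold change (DKO over sgControl of the same line) of 11 gene lists in OCI-AML-3, U937 and THP-1, from the fit of 16 libraries. OCI-AML-3 has the highest median for p53 targets (0.49) and the lowest for proliferation (-1.10), and lies between the other lines for interferon-stimulated genes (-0.04).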

How the data were processed

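RNA-seq counts per gene were analysed. The deposited values are raw counts of reads per gene. The submitters' processing notes name fastp 0.23.4, STAR 2.7.11b, Subread 2.0.6 with featureCounts, and hg38. The header of the deposited OCI-AML-3 table does not give the counting command. Per the file headers, the U937 and THP-1 table was counted by gene name without strand and holds the same gene rows. Counting without strand mixes overlapping genes.

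Here edgeR 4.0.16 (R 4.3.3) was used with filterByExpr, TMM scaling and the quasi-likelihood test on the 4 OCI-AML-3 libraries (2 residual and 46.2 prior degrees of freedom), and on 16 libraries for differences between lines. Alternatives were DESeq2 1.42.0, its size factors, no filter, a replicate block, MOLM-13 libraries in the fit and leaving out each library. The code was tested on simulated data. Promoters came from RefSeq (GRCh38.p14).

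Members and lists were chosen with earlier results of these data known. Named genes are both targets, from every list up to 4 of the largest changes past the test at a mean log2 CPM of at least 0, the 8 highest and 8 lowest genes past the test (mean log2 CPM of at least 1, groups not overlapping) and the 5 highest genes at 0 reads in the other group (129 in all, of which the text names part). A further 70 genes were chosen after their values were seen. Some genes are not reported here.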

Additional observations from a re-analysis of the deposited data

Results flagged for a closer look

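Each group holds 2 libraries, so no test for a library standing apart was possible. Differences of the DKO effect between lines were tested as an interaction in the fit of 16 libraries with edgeR, with p adjusted over 20193 genes. Of the 16 genes with the highest and lowest changes, those with at most 3 reads in 1 of the groups were left out. All 16 were picked by their change in the same OCI-AML-3 libraries, which favours a difference from other lines.

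The SUV39H1 effect in OCI-AML-3 minus that in U937 was -3.67 on the log2 scale, and minus that in THP-1 it was -4.00. For SUV39H2 the OCI-AML-3 effect minus that in THP-1 was 0.87. The DYSF effect was 5.27 higher than in U937 and 5.48 higher than in THP-1. EPB41L4A differed by 5.65 from U937 and 5.72 from THP-1, and PDE7B by 3.40 and 3.70. CD93 differed by 3.93 from U937 and 3.43 from THP-1, although it also rose in both of those lines, by 0.84 and 1.34. CR1 was 1.75 higher than in U937 and, at -1.20, lower than in THP-1. ADAMTS10 differed by -7.53 from U937 and -3.45 from THP-1, and DHRS3 by -6.50 and -4.51. The DYSF, EPB41L4A, PDE7B, ADAMTS10 and DHRS3 values rest on low counts in at least 1 line. Each had an adjusted p of at most 0.00139.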

How the results depend on the processing

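DKO and sgControl libraries share replicate numbers. Deviations of same-numbered libraries from their group means had a correlation of -0.04 over 10546 genes. No common shift of same-numbered libraries was seen, but this cannot tell whether they were grown or prepared together. With a replicate block 3885 genes rose and 4109 fell, and 7579 and 8637 genes differed from U937 and THP-1. Genes that rose numbered 3877 with DESeq2 size factors, 3096 with the DESeq2 test, 2721 with no filter and 3989 with MOLM-13 in the fit, and those that fell 4217, 3669, 3220 and 4166. Leaving out 1 library gave 2192 to 3005 genes up and 2828 to 3209 down, 9 to 14 interferon-stimulated genes up and 9 to 15 down, 20 to 22 p53 genes up and 2 to 5 down, 30 to 32 monocyte genes up and 6 to 7 down, and 39 to 40 proliferation genes down. The lone library of a group is then assumed to vary like the others. Genes differing from U937 numbered 7671 and from THP-1 8801, and over the alternatives 6808 to 7700 and 7466 to 8677. Scaling moved the median of all genes by at most 0.01. No named gene reversed, and of 199 named, calls were lost for 5 with the DESeq2 test, 7 with no filter, 2 with the block, 19 without DKO library 1 and 19 without DKO library 2, 7 without sgControl library 1 and 6 without sgControl library 2. Of the list counts, 454 stayed within 1.5-fold and 68 moved further. The cause was not tested. Genes of a few reads are limited by depth.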
